A study of Homo sapiens with 6 samples.

Results

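The genes described here are the 3 MYB family transcription factor genes (MYB, MYBL1 and MYBL2), 4 genes for subunits of the MuvB complex (LIN9, LIN37, LIN52 and LIN54) and FOXM1. They were taken by symbol from a deposited expression table, in which each of the 8 symbols occurs once among 27328 loci. MYBL1 was measured at 359, 44.0 and 2025 FPKM in overexpression replicates 1, 2 and 3, against 9.04, 7.15 and 10.3 FPKM in vector replicates 1, 2 and 3. The groups overlapped for each of the other 7 genes. Between the groups, limma called 0 of 12064 tested genes without a term for replicate number. With that term it called 12, among them MYBL1 and none of the other 7. FPKM scales fragment counts to gene length and to the number of mapped fragments, so levels of different genes can be set side by side.

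MYB proteins share a DNA-binding domain at the N terminus and activate transcription. MYB is best known from blood progenitors and is fused to NFIB in many adenoid cystic carcinomas, MYBL1 (A-MYB) is best known from male germ cells and is rearranged in some of these tumors, and MYBL2 (B-MYB) is expressed in most dividing cells. MuvB is a core of LIN9, LIN37, LIN52, LIN54 and RBBP4 that changes partners during the cell cycle. In resting cells it joins E2F4 or E2F5, DP proteins and the pocket proteins p130 or p107 as the repressive DREAM complex. In S phase it binds MYBL2 instead, and FOXM1 then joins to activate genes of the G2 and M phases.

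Messenger RNA was sequenced from SACC-83, an established cell line of human salivary adenoid cystic carcinoma, in 3 libraries with overexpression of the circular RNA circMYBL1 and 3 libraries with an empty vector (labelled as genotype WT). The sequencing was done to find targets of the circular RNA. The construct, the way it was introduced and whether libraries of a group came from separate cultures are not stated, and a p-value here reflects no more than how these libraries vary, possibly for technical reasons. The genotype labels of overexpression replicates 1, 2 and 3 read circMYBL1, circMYBL2 and circMYBL3, while their titles mark all 3 as overexpression only, and they were kept as 1 group.

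Summed FPKM ranged from 379404 to 408826 in the overexpression libraries and from 371776 to 393350 in the vector libraries; the number of reads behind them is unknown. By replicate number, 5605 of 12064 tested genes (46.5%) differed with both groups fitted together, and 447 did so without the libraries numbered 2. Of 8 epithelial markers, 7 were at 1 FPKM or more in every library, with a summed level of 2072 to 2456 FPKM in overexpression libraries and 1999 to 2347 FPKM in vector libraries. Of 8 genes typical of adenoid cystic carcinoma, TP63 and SOX4 were at 1 FPKM or more in every library. MYB lay between 0.688 and 1.21 FPKM and NFIB between 0.932 and 2.44 FPKM. SOX10 and EN1 stayed below 1 FPKM in every library, and KIT and SOX8 were listed at 0 throughout. The summed level of the 8 genes was 19.95 to 33.7 FPKM in overexpression and 21.5 to 42.8 FPKM in vector libraries. Of 4 myoepithelial markers, ACTA2 and CALD1 reached 1 FPKM in every library (summed level 28.9 to 43.7 FPKM in overexpression and 32.3 to 44.8 FPKM in vector libraries). Of 9 markers of other cell types, CD68 and COL1A1 reached it, while PTPRC, CD3E and COL1A2 were listed at 0 throughout (summed level 9.61 to 18.1 FPKM in overexpression and 11.9 to 20.3 FPKM in vector libraries). In libraries of whole cultures, fewer cells with a transcript and less of it per cell cannot be told apart.

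MYBL1, whose name the circular RNA carries, was the only one of the 8 genes whose groups did not overlap. MYBL1 (ENSG00000185697) lies on chromosome 8 from 66562175 to 66614247 on the minus strand of GRCh38. It averaged 809 ± 1064 FPKM in overexpression libraries and 8.83 ± 1.59 FPKM in vector libraries (SD, n = 3 each). The ratios within same-numbered libraries were 39.7, 6.16 and 197 for numbers 1, 2 and 3. The lowest overexpression library, replicate 2, was thus above every vector library, and the highest overexpression library was 46.0 times the lowest. The vector libraries varied 1.44-fold. Among all loci of a library MYBL1 ranked 150, 1463 and 14 by FPKM in overexpression replicates 1, 2 and 3, against 5974, 7376 and 5780 in vector replicates 1, 2 and 3. In overexpression replicate 3 it held 0.522% of all FPKM, and in the other 5 libraries between 0.00192% and 0.0878%.

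The log2 fold change of MYBL1 on the log2(FPKM + 1) scale was 5.04 (SE 1.21, 95% interval 2.16 to 7.92), and limma over 12064 genes gave an adjusted p of 1.0 without a term for replicate number. With the replicate number as a block MYBL1 was called higher (SE 0.66, 95% interval 3.56 to 6.52, limma, adjusted p = 0.0225). In limma this SE draws on the variance of other genes and does not measure the spread of the MYBL1 pairs alone. The differences of pairs 2 and 3, 2.47 and 7.49, lay outside that interval. MYBL1 was 1 of 11 genes called higher in the block fit, 0.0912% of all tested, and 1 of 9 tested genes with a ratio over 2 in every pair. Groups that did not overlap with overexpression higher were found for 2.5% of all tested genes. The call of MYBL1 was lost in the block fit when both libraries numbered 1 were dropped (limma, adjusted p = 0.0587), when low genes were kept (0.814) and when eBayes had no trend (0.0883). In the fit of group alone, the log2 fold change was 6.45 without overexpression replicate 2 and 3.71 without overexpression replicate 3. An exact 2-sided permutation test over the 20 ways to divide the libraries gave p = 0.1, the smallest that 3 against 3 allows. The gene-level FPKM sums all reads given to MYBL1, so a circle, its construct and linear MYBL1 mRNA cannot be told apart.

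**Figure D1:**
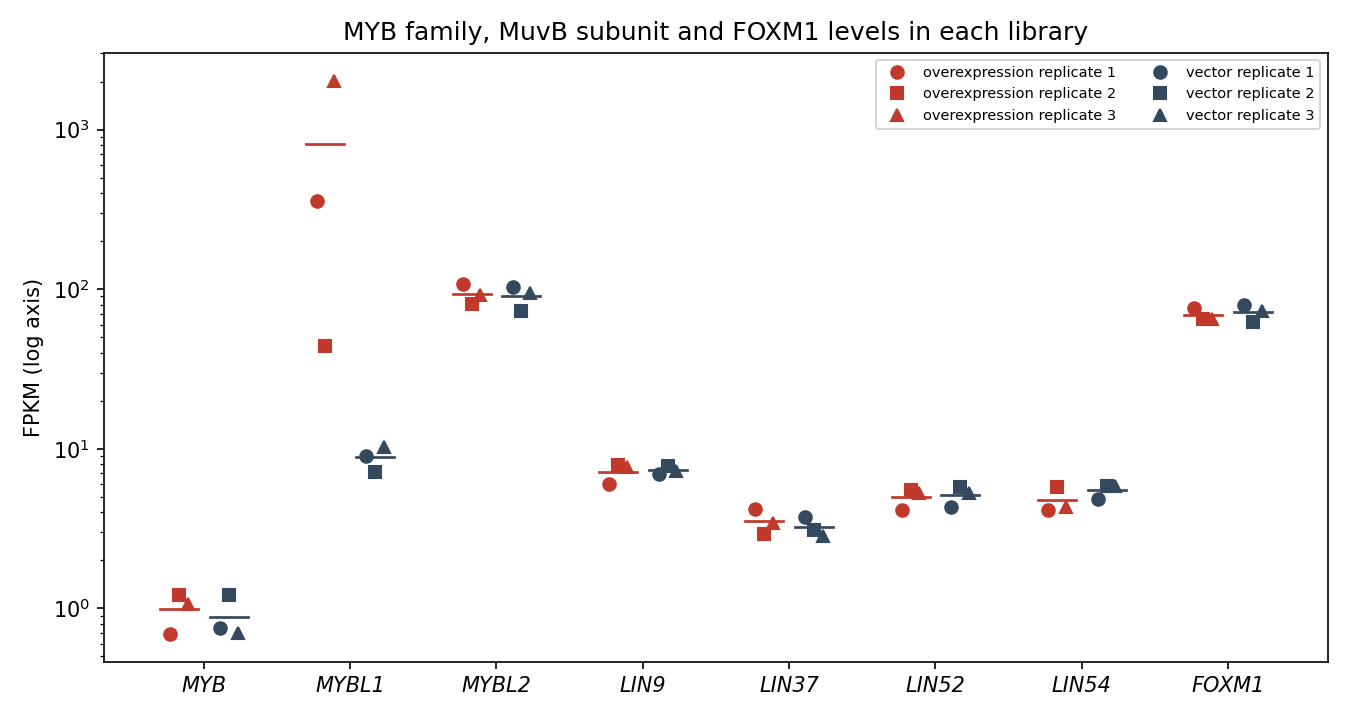
FPKM of the 8 genes on a log axis, with overexpression libraries in red left of vector libraries in dark blue; symbols mark the replicate number and lines the group mean. MYBL1 runs from 44.0 to 2025 FPKM with overexpression, against 7.15 to 10.3 FPKM with vector, while for each of the other 7 genes the 2 groups overlap.

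The make-up of summed MYB family FPKM followed MYBL1. As a circle, its construct and linear MYBL1 mRNA cannot be told apart, the shares and ratios below may not be of linear mRNA alone. MYBL1 supplied 76.9%, 34.9% and 95.6% of the summed FPKM of MYB, MYBL1 and MYBL2 in overexpression replicates 1, 2 and 3. In vector replicates 1, 2 and 3 it supplied 8.05%, 8.83% and 9.69%, and MYBL2 89.6% to 91.3%. The ratio of MYBL1 to MYBL2 was 3.35, 0.544 and 22.2 in overexpression replicates 1, 2 and 3, so MYBL2 still had the higher FPKM in overexpression replicate 2. In the vector libraries that ratio was 0.0881, 0.0984 and 0.108. Without MYBL1 the family summed to 108, 82.1 and 92.3 FPKM in overexpression replicates 1, 2 and 3, and to 103, 73.8 and 96.0 FPKM in vector replicates 1, 2 and 3, so these sums overlapped.

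**Figure D2:**
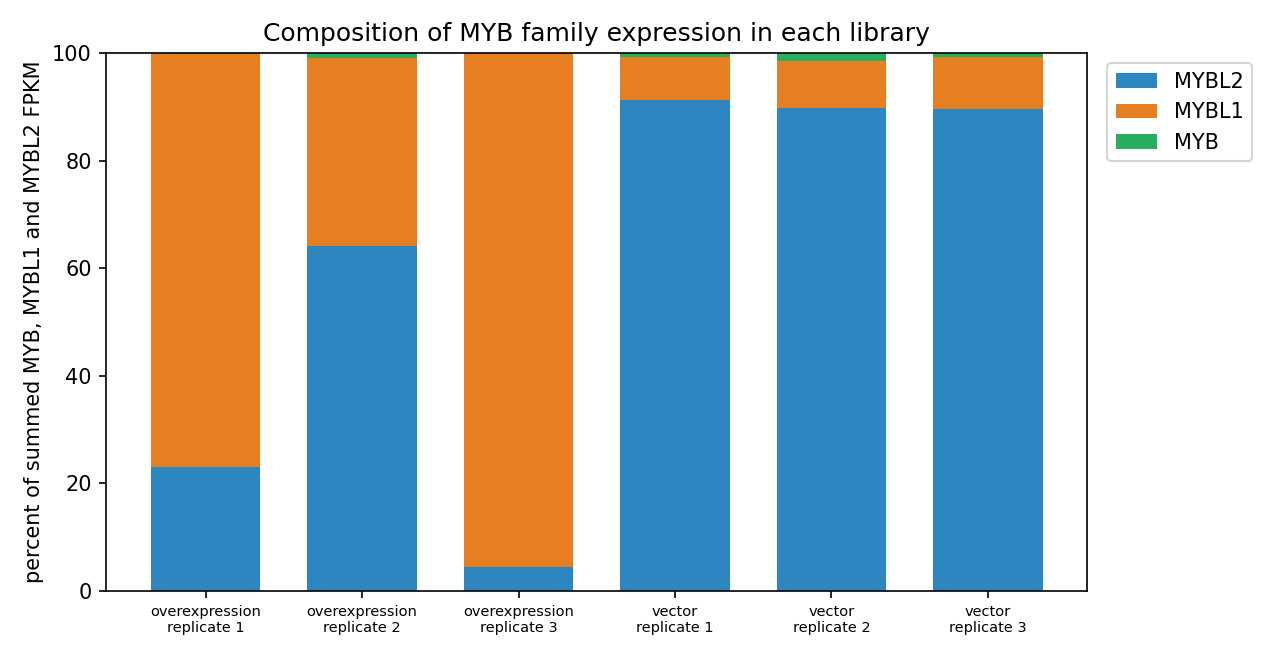
Percent of the summed FPKM of MYB, MYBL1 and MYBL2 that each gene supplies, 1 bar per library with overexpression on the left. The FPKM of MYBL1 may include reads of a circle or its construct. MYBL1 (orange) takes 34.9% to 95.6% of the bar in overexpression libraries and 8.05% to 9.69% in vector libraries; MYB (green) stays under 2% throughout.

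MYBL2, the family member of the cell cycle, was the most abundant of the 8 genes in the vector libraries. MYBL2 (ENSG00000101057, chromosome 20, 43667019 to 43716496, plus strand) read 107, 80.9 and 91.3 FPKM in overexpression replicates 1, 2 and 3, and 103, 72.6 and 95.3 FPKM in vector replicates 1, 2 and 3. The groups overlapped, and the lowest library of each was the one numbered 2. The log2 fold change was 0.052 (SE 0.18, 95% interval -0.38 to 0.49, limma, adjusted p = 1.0), and its sign turned under quantile scaling. In the library whose genotype label reads circMYBL2, overexpression replicate 2, the ratio of MYBL2 to vector replicate 2 was 1.11, against 1.05 and 0.958 in the other 2 pairs.

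MYB, the member most often rearranged in adenoid cystic carcinoma, was the lowest of the 8 genes in every library. MYB (ENSG00000118513, chromosome 6, 135181315 to 135219173, plus strand) read 0.688, 1.21 and 1.06 FPKM in overexpression replicates 1, 2 and 3, and 0.748, 1.204 and 0.705 FPKM in vector replicates 1, 2 and 3. The groups overlapped, and the log2 fold change was 0.074 (SE 0.20, 95% interval -0.40 to 0.55, limma, adjusted p = 1.0). At levels near the added 1 FPKM this scale understates any change. MYB passed the filter of at least 1 FPKM in at least 3 of the 6 libraries, and shares 103 exon bases with the antisense gene MYB-AS1, not analysed here.

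FOXM1, the forkhead factor that joins MYBL2 and MuvB, was close to MYBL2 in level. FOXM1 (ENSG00000111206, chromosome 12, 2857681 to 2877155, minus strand) was measured at 76.3, 64.5 and 64.6 FPKM in overexpression replicates 1, 2 and 3, and 79.1, 62.7 and 72.5 FPKM in vector replicates 1, 2 and 3. Replicate 1 was the highest library in each group and the groups overlapped. The log2 fold change was -0.057 (SE 0.15, 95% interval -0.41 to 0.30, limma, adjusted p = 1.0). Of its exon bases, 781 (15.9%) are shared with ITFG2 on the opposite strand, which averaged 10.8 FPKM in overexpression and 9.59 FPKM in vector libraries. The strand setting of the counting is unknown, and reads from that stretch may be given to either gene.

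The 4 LIN subunits of MuvB were expressed at low levels, between 2.82 and 7.91 FPKM in all 6 libraries. By group mean LIN9 was the highest and LIN37 the lowest of the 4 in both groups. RBBP4, the remaining MuvB subunit, was higher, averaging 18.0 FPKM in overexpression and 19.0 FPKM in vector libraries. LIN9, a scaffold of the complex (ENSG00000183814, chromosome 1, 226231149 to 226309869, minus strand), stood at 6.001, 7.91 and 7.63 FPKM in overexpression replicates 1, 2 and 3, and 6.95, 7.77 and 7.22 FPKM in vector replicates 1, 2 and 3. LIN52, whose phosphorylation by DYRK1A favours DREAM assembly (ENSG00000205659, chromosome 14, 74084796 to 74201235, plus strand), read 4.14, 5.53 and 5.28 FPKM in overexpression replicates 1, 2 and 3, and 4.29, 5.78 and 5.26 FPKM in vector replicates 1, 2 and 3. Both genes overlapped between groups and were highest in the libraries numbered 2. Their log2 fold changes were -0.030 (SE 0.15, 95% interval -0.39 to 0.33) and -0.031 (SE 0.17, 95% interval -0.44 to 0.38; limma, adjusted p = 1.0 for each).

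LIN54, the subunit that contacts DNA (ENSG00000189308, chromosome 4, 82909973 to 83012926, minus strand), stood at 4.14, 5.79 and 4.32 FPKM in overexpression replicates 1, 2 and 3, and 4.83, 5.83 and 5.83 FPKM in vector replicates 1, 2 and 3. It was the only member lower in 3 of 3 pairs, with ratios of 0.857, 0.993 and 0.740, a pattern that 11.9% of all tested genes shared. The groups overlapped, and the log2 fold change was -0.18 (SE 0.17, 95% interval -0.59 to 0.22, limma, adjusted p = 1.0). With 1 library left out the log2 fold change lay between -0.11 without overexpression replicate 1 and -0.31 without overexpression replicate 2.

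LIN37, a subunit needed for repression by DREAM (ENSG00000267796, chromosome 19, 35748361 to 35754519, plus strand), read 4.20, 2.92 and 3.41 FPKM in overexpression replicates 1, 2 and 3, and 3.72, 3.11 and 2.82 FPKM in vector replicates 1, 2 and 3. The groups overlapped, and the log2 fold change was 0.092 (SE 0.18, 95% interval -0.32 to 0.51, limma, adjusted p = 1.0). LIN37 shares 752 exon bases (26.7%) with AD000671.1 on the same strand and 1180 (41.8%) with the antisense AD000671.3, so its level is uncertain. AD000671.1 was listed at 0.335, 0 and 0.216 FPKM in overexpression replicates 1, 2 and 3 and at 0 in the 3 vector libraries, and AD000671.3 was not analysed here.

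The start regions of these genes are shown because MuvB reads a short element, the cell cycle genes homology region (CHR), through LIN54, and E2F and DP proteins read a second. RefSeq windows of 300 bases (GRCh38.p14, from 250 bases before to 50 after a start) were found for 6 of the 8 genes, with 10 windows in all. The CHR letters TTTGAA or TTCGAA, on either strand, occurred in 4 of the 10 windows (LIN9, LIN37 and both of LIN54), against 16.4% of 35116 windows of all genes. By gene this was 3 of 6, against 19.5% of 27305 genes. The E2F core letters GGCGGGA, on either strand, occurred in 7 windows, against 15.4% of all windows. These windows covered all 6 genes, against 18.0% of 27305 genes with such a match. The MYB letters TAACNG, on either strand, occurred in 1 window each of LIN9 and LIN37, against 20.8% of all windows and 24.3% of 27305 genes. The 2 windows of LIN54 overlap and hold the same CHR and E2F matches, which are thus counted in both. The motifs searched do not overlap each other in these windows.

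One stretch per gene that holds CHR or E2F letters is given 5′ to 3′ on the gene's strand, with CHR and E2F matches in capitals. A match is a stretch of letters and not a measured binding site.
LIN54, chr4:83010894-83010947, minus strand, with a CHR and an E2F match: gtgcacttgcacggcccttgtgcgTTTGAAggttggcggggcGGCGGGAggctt
LIN37, chr19:35748608-35748661, plus strand, with a CHR and an E2F match: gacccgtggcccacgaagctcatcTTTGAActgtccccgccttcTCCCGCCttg
LIN9, chr1:226309195-226309248, minus strand, with a CHR match: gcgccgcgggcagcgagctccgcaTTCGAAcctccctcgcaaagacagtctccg
LIN52, chr14:74084909-74084955, plus strand, with an E2F match: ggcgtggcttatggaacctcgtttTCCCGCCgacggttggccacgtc
MYBL2, chr20:43667051-43667105, plus strand, with an E2F match: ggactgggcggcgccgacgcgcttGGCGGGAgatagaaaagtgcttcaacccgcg
MYB, chr6:135181226-135181280, plus strand, with an E2F match: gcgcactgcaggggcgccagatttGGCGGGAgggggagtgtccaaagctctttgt
The LIN9 window also holds a second CHR match and 2 E2F matches outside the stretch printed. The CHR and E2F letters lie in 1 stretch in LIN54 and in LIN37, on the same strand in LIN54 and on opposite strands in LIN37.

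Ordered by mean FPKM, the overexpression libraries gave MYBL1 (809), MYBL2 (93.1), FOXM1 (68.5), LIN9 (7.18), LIN52 (4.98), LIN54 (4.75), LIN37 (3.51) and MYB (0.984). The vector libraries gave MYBL2 (90.2), FOXM1 (71.4), MYBL1 (8.83), LIN9 (7.31), LIN54 (5.50), LIN52 (5.11), LIN37 (3.22) and MYB (0.886). In the vector libraries the ranges of MYBL2 and FOXM1, of MYBL1 and LIN9, and of LIN54 and LIN52 overlapped, and the other neighbours in the order were apart. In the overexpression libraries the ranges of MYBL1 and MYBL2, LIN52 and LIN54, and LIN54 and LIN37 overlapped. MYBL2 exceeded the mean of the 4 LIN genes 14.6- to 23.2-fold in overexpression libraries and 12.9- to 20.7-fold in vector libraries.

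Across the 8 genes, 0 were called between the groups by limma without the block, as were 0 of the 12064 tested genes (0%; 65 genes had an unadjusted p under 0.05, and the smallest adjusted p was 0.672). Of the 8 genes MYBL1 had an unadjusted p under 0.05 (0.00438). With the block 1 of the 8 was called, MYBL1, against 12 of all tested genes in either direction (0.0995%). For the other 7 genes the adjusted p with the block lay between 0.781 (LIN54) and 0.950 (LIN9). Within pairs, MYBL1 was higher in 3 of 3, shared by 16.5% of all tested genes, and LIN54 lower in 3 of 3. MYB, MYBL2, LIN9 and LIN37 were higher in 2 of 3 pairs, and LIN52 and FOXM1 in 1 of 3. The median log2 fold change of the 8 genes was 0.011, beside 0.028 for all tested genes.

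**Figure D3:**
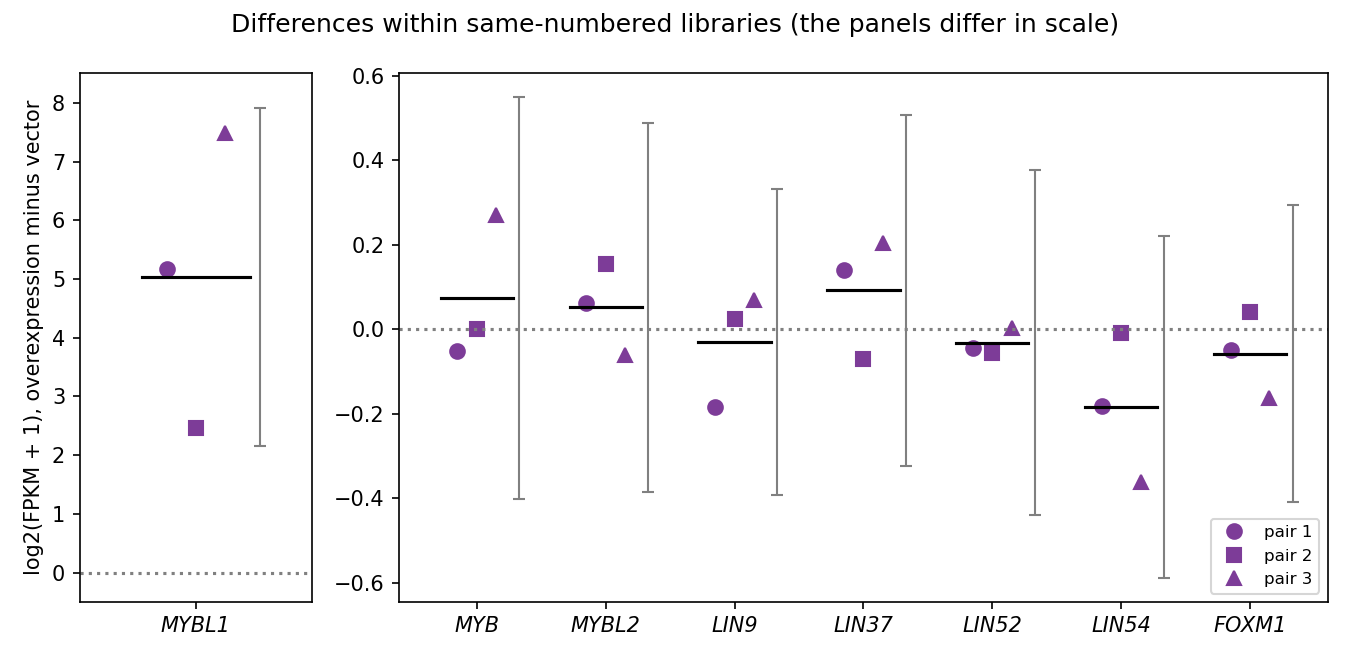
Overexpression minus vector on the log2(FPKM + 1) scale for each same-numbered pair (symbols), with the mean (black line) and its 95% limma interval without the block (grey bar); the panels differ in scale. MYBL1 lies at 5.16, 2.47 and 7.49 in pairs 1, 2 and 3, while the intervals of the other 7 genes all include 0.

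By replicate number 2 of the 8 genes were called, beside 46.5% of all tested genes. MYBL2 differed by replicate number (limma F-test with group as a term, adjusted p = 0.0212): replicate 2 minus the mean of replicates 1 and 3 was -0.29 in overexpression libraries and -0.44 in vector libraries on the log2 scale. MYBL1 was also called by replicate number (limma, adjusted p = 0.0341). Its replicate 2 minus the mean of replicates 1 and 3 was -4.245 in overexpression libraries and -0.39 in vector libraries on the log2 scale. FOXM1, LIN9, LIN37, LIN52, LIN54 and MYB were not called, with adjusted p from 0.0929 (LIN52) to 0.270 (LIN9).

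Among the 6 uncalled genes, FOXM1 was lowest in replicate 2 of both groups, while MYB, LIN9, LIN52 and LIN54 were highest in replicate 2 of both. Replicates 2 and 3 were nearly equal for FOXM1 with overexpression (64.54 and 64.63 FPKM) and for LIN54 with vector (5.833 and 5.828 FPKM). LIN37 was lowest in replicate 2 with overexpression and in replicate 3 with vector. The call of MYBL2 was lost with low genes kept (limma, adjusted p = 0.0636), under quantile scaling (0.103) and with both libraries numbered 2 dropped (0.557). That of MYBL1 was lost with low genes kept (limma, adjusted p = 0.286) and with no trend (0.0568). It was kept with both libraries numbered 2 dropped, in a fit with 1 residual degree of freedom. That fit draws on the variance of other genes and does not measure the spread of MYBL1 itself. In it, overexpression replicates 1 and 3 read 359 and 2025 FPKM, and vector replicates 1 and 3 read 9.04 and 10.3 FPKM. LIN52 was called under TPM (0.0464) and LIN37 under quantile scaling (0.0231).

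**Figure D4:**
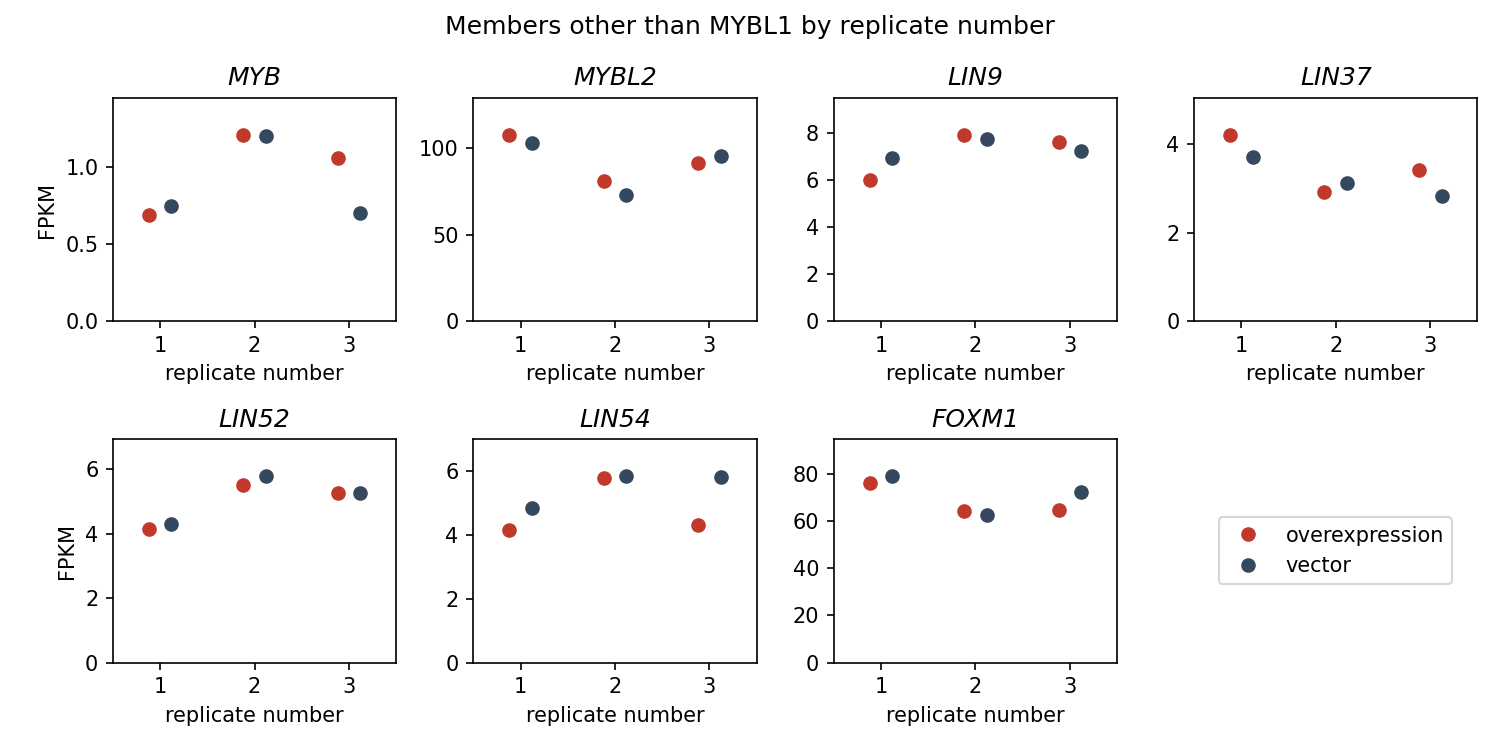
FPKM of the 7 members other than MYBL1 by replicate number, with overexpression (red) left of vector (dark blue) and each axis starting at 0. In MYBL2 and FOXM1 replicate 2 is the lowest of both groups, and in MYB, LIN9, LIN52 and LIN54 it is the highest.

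In 8 lists of genes around the members, 136 different genes were tested; 0 had an unadjusted p under 0.05 (limma) without the block and 6 with it, beside 65 and 868 of all 12064 tested genes, and none passed adjustment in either fit. The first list holds the partners that MuvB joins in DREAM, the MuvB subunit RBBP4 and the kinase DYRK1A, and showed no called change between the groups. Of 8 such genes, 0 were called in either fit, 4 were higher and 4 lower, with a median log2 fold change of 0.0053. The chromatin-binding subunit RBBP4 averaged 18.0 ± 3.44 FPKM in overexpression and 19.0 ± 2.20 FPKM in vector libraries (SD, n = 3 each). DYRK1A, the kinase of LIN52, gave 0.23 and E2F5 0.095, while TFDP2, a DP protein, gave -0.25 and RBL2, which encodes p130, gave -0.11. Replicate number was called for 5 of the 8, beside 46.5% of all tested genes. RBL2 read 9.25, 20.7 and 13.1 FPKM in overexpression replicates 1, 2 and 3, and 9.92, 23.9 and 13.4 FPKM in vector replicates 1, 2 and 3 (limma, adjusted p for replicate number = 0.000206). RBL2 was highest, and E2F4, the main E2F of DREAM, lowest in the replicates numbered 2 of both groups (E2F4 adjusted p = 0.0310).

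Among 15 genes of the RB pathway and the E2F family, 0 were called between the groups in either fit. By replicate number 10 were called, beside 46.5% of all tested genes. Their median log2 fold change was 0.045. The cell cycle inhibitor CDKN1A gave 0.34 (53.6 ± 9.13 FPKM with overexpression and 43.3 ± 14.8 FPKM with vector; SD, n = 3 each) and the cyclin D partner CDK4 gave 0.13. The inhibitor CDKN1B gave -0.097 and the pocket protein gene RB1 -0.080. Both were lower in 3 of 3 pairs, as were 11.9% of all tested genes.

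Targets of MYBL2, MuvB and FOXM1 in G2 and M phase showed no called gene between the groups. Of 46 such genes, 0 were called in either fit, 34 were lower on average and 12 higher, with a median log2 fold change of -0.047; of all tested genes 41.9% were lower. The medians of pairs 1, 2 and 3 were -0.17, 0.059 and -0.078, so pair 2 had the opposite sign. In 7 of the 46 genes all 3 pairs were lower and in 2 all were higher, beside 11.9% and 16.5% of all tested genes. Without replicate 2 of both groups, 26 genes were lower in both remaining pairs and the median was -0.12, beside 24.5% of all tested genes and a median of 0.017. The lowest log2 fold changes were those of KIF14, a mitotic kinesin (-0.22, SE 0.27), and CENPE, a kinesin of the kinetochore (-0.19, SE 0.17). The highest were UBE2S (0.17, SE 0.37), a ubiquitin-conjugating enzyme of the anaphase-promoting complex, and AURKB, a mitotic kinase (0.16, SE 0.25). Replicate number was called for 16 of the 46 (7 lower and 9 higher in replicate 2 of both groups), beside 46.5% of all tested genes.

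Of 29 targets of E2F and DREAM in G1 and S phase, 0 were called between the groups in either fit, 21 were higher and 8 lower, and the median log2 fold change was 0.044; of all tested genes 58.1% were higher. The medians of pairs 1, 2 and 3 were 0.12, 0.055 and -0.040. Without replicate 2 of both groups, 6 genes were higher and 7 lower in both remaining pairs, with a median of 0.020. Of all tested genes, 25.6% were higher and 24.5% lower in both of those pairs. TK1 (thymidine kinase) gave 0.27 and RRM2, a ribonucleotide reductase subunit, 0.24, while UHRF1 gave -0.25. TK1 and RRM2 were higher in 3 of 3 pairs, as were 16.5% of all tested genes. Replicate number was called for 14 of the 29, beside 46.5% of all tested genes.

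Of 13 genes known as MYB targets, 10 were tested and 0 were called in either fit. On average 8 of the 10 were lower and 2 higher, with a median log2 fold change of -0.15, and 5 were lower in 3 of 3 pairs. Of all tested genes 41.9% were lower on average and 11.9% in 3 of 3 pairs. The pair medians were -0.17, -0.13 and -0.11, and without replicate 2 of both groups 9 were lower in both remaining pairs (median -0.16), beside 24.5% of all tested genes. GATA3, a transcription factor, gave -0.38 and CCNA1, the germ-cell A-type cyclin, gave -0.37, both at 2.17 FPKM or less in every library. The chaperone gene HSPA8 gave 0.17 and MAT2A, which makes S-adenosylmethionine, 0.024. KIT and CD34 were listed at 0 in every library and BCL2 stayed below 0.6 FPKM. Replicate number was called for 7 of the 10, beside 46.5% of all tested genes.

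Among 18 cofactors and regulators of MYB proteins 0 were called between the groups in either fit, 10 were higher and 8 lower, with a median of 0.022. The highest was CEBPB, which cooperates with MYB in myeloid cells (0.53, SE 0.26; 26.96 ± 4.33 FPKM with overexpression and 19.0 ± 6.86 FPKM with vector; SD, n = 3 each), and the next CDK2 (0.16). The lowest were FBXW7, a ubiquitin ligase subunit (-0.18), and KMT2A, a histone methyltransferase (-0.18). Replicate number was called for 10 of the 18, beside 46.5% of all tested genes. Of 10 regulators of FOXM1, 0 were called between the groups, with a median of 0.068. By replicate number 4 were called, beside 46.5% of all tested genes. CDK2 gave 0.16, CCNA2 -0.043 and HSPA1A -0.092. The 4 genes known as fusion partners of MYB or MYBL1 were also uncalled: RAD51B 0.19, YTHDF3 0.047, NFIB -0.094 and TGFBR3 -0.16. All 4 were called by replicate number, beside 46.5% of all tested genes. NFIB averaged 1.41 ± 0.403 FPKM in overexpression and 1.62 ± 0.760 FPKM in vector libraries (SD, n = 3 each).

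**Figure D5:**
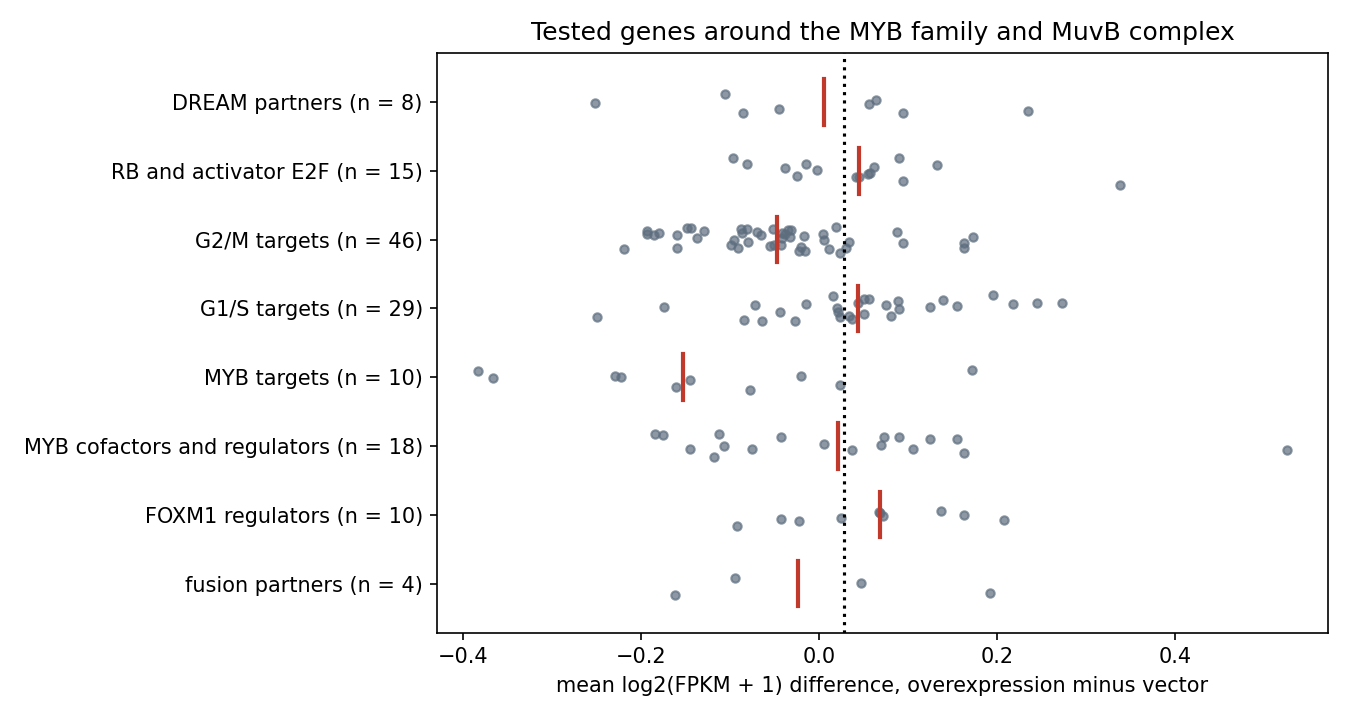
Mean log2(FPKM + 1) difference, overexpression minus vector, of the tested genes of 8 lists around the MYB family and MuvB (1 point per gene, jittered down the page); red lines are list medians and the dotted line the median of all tested genes (0.028). The list medians run from -0.15 for MYB targets to 0.068 for FOXM1 regulators, and no point was called in either fit.

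Likeness to a member was measured as the root mean square difference of mean-centred log2(FPKM + 1) profiles over the 6 libraries, for 12063 other genes. For MYBL1 the nearest were IFI27 (1.997), IFI6 (2.19) and the locus Homo_sapiens_newGene_3602 (2.32), beside a median of 2.99 over all genes and a spread of 2.98 for MYBL1 itself, so none was close. For MYBL2 the nearest were TARSL2 (0.0146), EIF4H (0.0177) and HNRNPC (0.0194), against a median of 0.285. For FOXM1 they were WARS2 (0.0217), RNF4 (0.0244) and GAS8 (0.0257), against a median of 0.255. The RefSeq entries next to MYBL1 on either side, LOC124901955 and LOC105375884, were not analysed here. Of the next protein-coding neighbours, VXN was listed at 0 in every library, and VCPIP1 averaged 3.04 ± 0.465 FPKM in overexpression and 3.35 ± 0.423 FPKM in vector libraries (SD, n = 3 each; log2 fold change -0.11, SE 0.17, limma, adjusted p = 1.0).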

How the data were processed

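One table of gene-level FPKM from 6 mRNA libraries (3 overexpression, 3 vector, grouped by sample title) was used. The authors deposited FPKM; per the submitters' processing notes HISAT2 and GRCh38 were used, with counter, annotation, strand setting and version numbers not given in the sources used here. Depth is unknown from the deposited FPKM, so no counting interval is given. The 12064 genes reaching 1 FPKM in 3 or more libraries were kept. On the log2(FPKM + 1) scale, models were run in R 4.3.3 using limma 3.58.1 (eBayes with trend, 2-sided, Benjamini-Hochberg over all kept genes, threshold 0.05), with group only, with replicate number as a block, and with an F-test of replicate number. Deviations from the group means of same-numbered libraries correlated at 0.725, 0.881 and 0.529 (all above 0.1), and differently numbered ones at -0.818 to 0.424. The numbers were taken as pairs on these correlations and not on the labels. As 0.424 is also above 0.1, the correlations do not settle which libraries belong together, and the block fit rests on that choice. The fits were also run on simulated data with the same spread for every gene, which these data do not have. That run does not show how well the fits perform here. Positions are from GENCODE 29 (GRCh38). All 8 members, the 2 highest and 2 lowest tested genes of each list (some are not reported here) and the 3 nearest profiles of 3 members were named; RBBP4, E2F4 and RBL2's per-library values were chosen after values were seen. The members and lists were chosen with earlier results of these data known. Alternatives were pseudocounts of 0.1 and 0.5, no filter, a mean FPKM of at least 5, TPM, quantile scaling, no trend, the block and leaving out libraries.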

Additional observations from a re-analysis of the deposited data

How the results depend on the processing

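Without the block, 0 genes were called in the fit of group, and 0 to 1 when 1 library was left out (1 without overexpression replicate 2, and 1 when vector replicate 1 was dropped). The replicate block gave 12 calls, 9 without a trend, 0 without a filter, and 14, 148 and 22 without replicates 1, 2 and 3, where few residual degrees of freedom make the count unreliable. Replicate number was called for 5605 genes, for 3389 without a filter and for 447 without replicate 2, an alternative chosen after seeing the data. Of 158 recomputed log2 fold changes of the 8 genes, 143 kept their sign and side of the threshold, 3 passed it (MYBL1, with the block) and 12 turned sign. LIN54 and MYBL1 turned in none. Under quantile scaling MYBL2 gave -0.0023. With 1 library left out, the values ran from -0.095 to 0.15 for MYBL2, -0.095 to 0.079 for LIN9, -0.016 to 0.19 for LIN37, -0.13 to 0.075 for LIN52, -0.0073 to 0.19 for MYB, -0.15 to 0.018 for FOXM1 and 3.71 to 6.45 for MYBL1. In the block fit LIN9 gave 0.047 without replicate 1 and MYB -0.024 without replicate 3. The block changed no call of the other 7 genes. MYB and LIN37 have no value under the stricter filter (mean FPKM 5 or more). Rescaling without MYBL1 in the library sums, also added later, turned no sign. The cause of these shifts was not tested. Unknown depth limits the low genes most, MYB above all.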

Other observations

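The overexpression library with the highest MYBL1 was not the one with the highest interferon-induced genes IFI27 and IFI6, the named genes nearest to MYBL1 in profile. In overexpression replicates 1, 2 and 3, MYBL1 read 359, 44.0 and 2025 FPKM, IFI6 read 576, 364 and 298 FPKM, and IFI27 read 305, 211 and 182 FPKM. In vector replicates 1, 2 and 3, IFI6 read 103, 81.9 and 60.4 FPKM and IFI27 read 51.6, 22.7 and 16.4 FPKM. With 3 libraries no relation was tested.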
